A study of Mus musculus with 9 samples.

Results

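Hearts of wild-type C57BL/6J mice taken on the first postnatal day (P1d) were compared with hearts taken at embryonic day 18.5 (E18.5d), across 13753 of the 48820 genes in a table of FPKM, which counts sequenced fragments relative to the length of the transcript and to the size of the library. The genes were those whose FPKM averaged 1 or more in the 3 P1d and the 3 E18.5d hearts, which are 6 of the 9 hearts sequenced. All hearts were whole, untreated and labelled male, each stage holds 3 biological replicates, and the labels tie no heart to a litter. The lowest gene kept had a mean of 1.0000 FPKM and the highest left out 0.9983 FPKM, and 270 genes lay at 1 to 1.1 FPKM against 304 at 0.9 to 1 FPKM. The stages were compared by limma, as differences in log2(FPKM + 1), and a gene passed where its p, adjusted by Benjamini and Hochberg's method for all 13753 genes, was under 0.05. Genes of low FPKM changed by more than these log2 changes say. A gene with a mean under 1 FPKM at 1 stage passed the filter through the other stage, in which it was higher. The p-values measure only the spread between these hearts. Members of the study's 5 heatmap lists (FA beta-oxidation, oxidative phosphorylation, glycolysis, cell cycle and ketone bodies) were left out of the gene lists and of the genes named for their changes.

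One property of the hearts is given before the results. *Xist*, the RNA that coats the inactive X chromosome of females, stood at 82.6 and 97.0 FPKM in E18.5d replicates 1 and 3, and at 0.07 to 0.11 FPKM in E18.5d replicate 2 and the 3 P1d hearts. The genes *Eif2s3y*, *Uty*, *Kdm5d* and *Ddx3y* of the Y chromosome were listed at 0 in E18.5d replicates 1 and 3 and lay between 9.74 and 40.9 FPKM in the other 4 hearts. These 2 E18.5d hearts go against their male label, so counts are given also with *Xist* expression as a covariate and without these hearts, and a named gene that did not pass the threshold with the covariate is said to be so. The second leaves 1 E18.5d heart, which was assumed to vary like the others. With the covariate too, a gene's change is that of the P1d mean from E18.5d replicate 2, as no P1d heart expresses *Xist*. The 2 settings are therefore not separate checks, and they differ only in the spread they use. The defining genes of cardiomyocytes (*Tnnt2* at 4278 to 4994 FPKM), endothelium (*Pecam1*), fibroblasts (*Col1a1*), epicardium (*Upk3b*) and smooth muscle (*Acta2*) were present in every heart, and those of T cells and thymus (*Cd3e*, *Dntt*, *Rag1*) were at or under 0.06 FPKM. Lung and airway genes were uneven: *Sftpc* was at or under 0.44 FPKM, *Scgb1a1* ran from 0 to 42.1 FPKM, and the list's summed level was 132 to 412 FPKM at E18.5d and 150.2 to 744 FPKM at P1d. The depth read from the steps between low FPKM values was 25.5 to 37.75 at E18.5d and 27.25 to 29.75 at P1d, in units of 1e6 fragments. Hearts of a stage correlated at a Pearson's r of 0.9774 to 0.9853 over these genes and hearts of different stages at 0.9384 to 0.9549.

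Birth moves the heart from the low oxygen, the glucose and lactate supply and the placental hormones of the foetus to air, to the fat of milk and to its own endocrine rhythm. In the same days the heart muscle cell is known to leave the cell cycle, to switch the isoforms of its contractile proteins, and to move from sugar towards FA as fuel. The lists below follow these themes: fuel, oxygen, hormone and clock signals, the machinery of cell division, of protein making and folding, the contractile and electrical apparatus, growth signals and matrix, and the cells of the blood and of neighbouring tissue. In a bulk heart, fewer cells of a type and less RNA per cell cannot be told apart.

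Of the 13753 genes, 2188 (15.9%) rose and 3369 (24.5%) fell between E18.5d and P1d. The 3 hearts of one stage did not overlap the 3 of the other in 54.2% of all genes tested, and in 2178 of the risen and 3353 of the fallen genes. Most changes were small, with log2 changes of -0.87 and 0.69 at the 5th and 95th percentiles and a median of -0.06, and 721 genes changed by at least 1 (263 higher and 458 lower). With *Xist* as a covariate, 660 genes rose and 1427 fell, and without both hearts that express it 221 rose and 544 fell. The scaling of the columns set the balance of the calls. As deposited, 39.4% of the called genes were higher at P1d, which became 19.7% with the columns scaled to an equal sum (1028 higher and 4188 lower), 42.4% with equal sums of protein-coding nuclear genes, 51% after scaling by median of ratios and 51.2% after quantile normalization. The columns summed to 1347981 to 1429394 FPKM at E18.5d and to 1427608 to 1794160 FPKM at P1d, and 5 small structural RNAs took 53.3% to 62.3% of each column. The share of protein-coding nuclear genes was 36.5% to 37.3% in the E18.5d columns and 29.6% to 34.5% in the P1d columns. Equal sums moved the median of all genes to -0.21, so a list's changes are read against the median of all genes, and a scaling is named beside a list wherever it turned or levelled the balance of its calls. The 65 lists held 2385 different genes outside the heatmap lists, of which 351 were under the filter and 2034 were tested. Of these 2034, 373 rose and 647 fell.

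**Figure D1:**
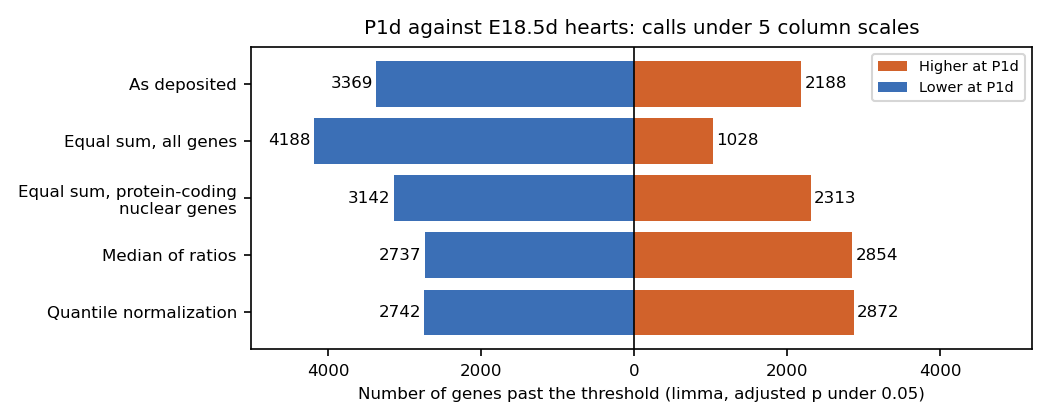
Number of genes called higher and lower at P1d (limma, adjusted p under 0.05, 13753 genes) with the columns as deposited and after 4 other scalings. The number higher runs from 1028 at an equal sum to 2872 after quantile normalization, against 2188 as deposited.

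The gene with the largest increase among protein-coding autosomal genes was *Pdk4*, the kinase that holds pyruvate dehydrogenase inactive when FA are burnt. It stood at 11.2, 11.2 and 12.1 FPKM at E18.5d against 176, 135 and 108 at P1d (log2 change 3.47 ± 0.16 SE, adjusted p = 3.11e-05). *Slc25a34*, an orphan carrier of the mitochondrial inner membrane, stood at 1.03, 1.21 and 0.69 FPKM at E18.5d against 18.4, 21.1 and 12.8 at P1d (log2 change 3.20 ± 0.19 SE, adjusted p = 6.36e-05). *Angptl4*, the secreted inhibitor of lipoprotein lipase, stood at 1.69, 2.17 and 2.14 FPKM at E18.5d against 36.5, 20.2 and 21.7 at P1d (log2 change 3.13 ± 0.21 SE, adjusted p = 9.55e-05). In each of these genes every P1d heart lay several times above every E18.5d heart, but lack of overlap was a condition for choosing them. *Scd4*, a stearoyl-CoA desaturase, which puts a double bond into FA, stood at 3.98, 3.77 and 3.26 FPKM at E18.5d against 46.5, 36.7 and 30.6 at P1d (log2 change 3.04 ± 0.15 SE, adjusted p = 3.5e-05). The acyl-CoA thioesterases *Acot1* and *Acot2*, of the cytosol and of the mitochondrion, had log2 changes of 2.99 and 2.53, with reads that these near-identical neighbours may share. *Ucp3*, an uncoupling protein of muscle mitochondria, rose from a mean of 0.0467 ± 0.0379 to 7.24 ± 1.78 FPKM (SD, n = 3, log2 change 2.96 ± 0.16 SE, adjusted p = 5.53e-05), and an antisense gene of low level overlaps it. *Car4*, a membrane-bound carbonic anhydrase, rose from a mean of 2.12 ± 0.4 to 20.8 ± 6.36 FPKM (SD, n = 3, log2 change 2.77 ± 0.22 SE, adjusted p = 0.000177). *Txnip*, which binds thioredoxin and holds back glucose uptake, was the most abundant of the 12 genes with the largest increases at 132, 132 and 117 FPKM at E18.5d against 832, 896 and 662 at P1d (log2 change 2.63 ± 0.12 SE, adjusted p = 2.94e-05). The other 3 were *Stfa1*, *S100a9* and *S100a8*, genes of neutrophils, with log2 changes of 2.52, 2.39 and 2.36, and *Stfa1* has close copies that could share its reads.

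Among the 12 largest decreases, *Slc16a3*, the lactate exporter MCT4, stood at 44.8, 49.3 and 41.8 FPKM at E18.5d against 2.96, 3.41 and 4.28 at P1d (log2 change -3.35 ± 0.12 SE, adjusted p = 1.03e-05). Its lowest E18.5d heart was far above its highest P1d heart, but lack of overlap was a condition for choosing it. *Top2a*, the topoisomerase that untangles chromosomes in dividing cells, stood at 84.7, 85.6 and 88.3 FPKM at E18.5d against 13.4, 15.6 and 19.98 at P1d (log2 change -2.35 ± 0.13 SE, adjusted p = 5.56e-05). Of the other 10, 7 were replication-dependent histone genes (*Hist2h3c2*, *Hist1h2ao*, *Hist1h2ah*, *Hist1h3g*, *Hist1h2bj*, *Hist1h3b* and *Hist1h2bk*), with log2 changes of -2.87 to -2.25 and near-identical copies among which reads may be split. The last 3 share their position with another gene and are uncertain: *Gm10197*, at 71.1, 68.9 and 53.2 FPKM at E18.5d and listed at 0 in the 3 P1d hearts, overlaps *Mxi1* on the other strand, *Usp50* overlaps *Usp8* on the other strand, and *Pagr1a* overlaps *Pagr1b* and *Gm42742* on its own strand.

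**Figure D2:**
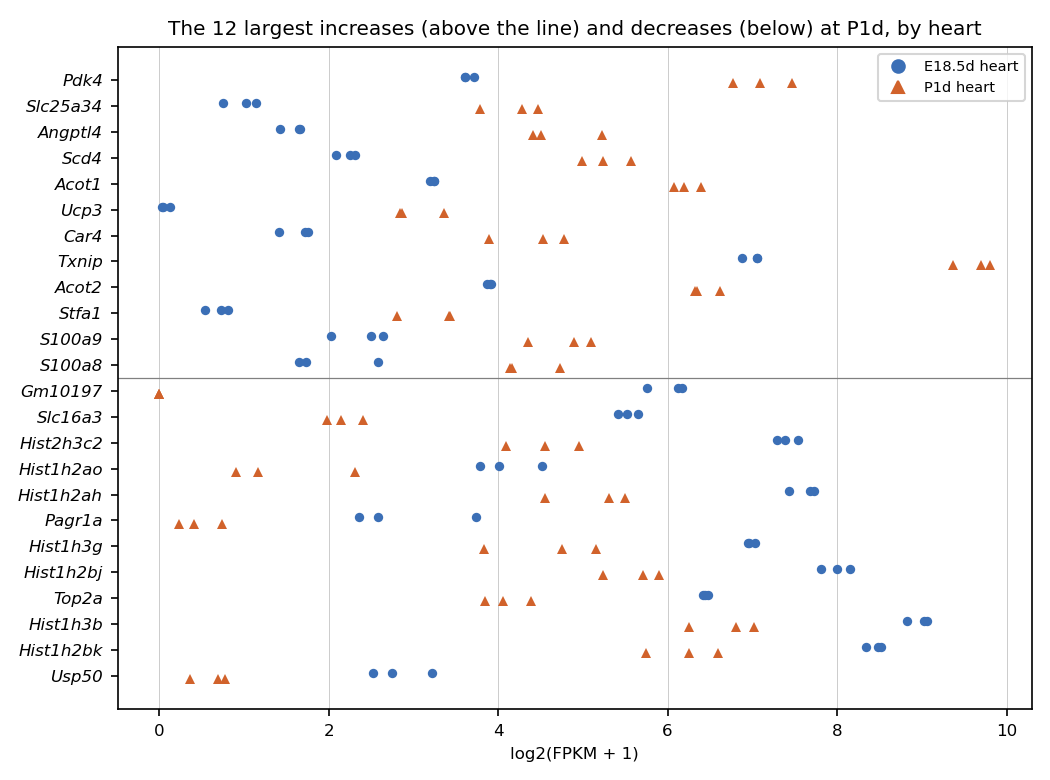
The 12 largest increases (above the line) and the 12 largest decreases (below it) among protein-coding autosomal genes, as log2(FPKM + 1) in each heart, circles for E18.5d and triangles for P1d. The hearts of the stages do not overlap in any of these genes, which is how they were chosen.

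Most genes of FA uptake, lipolysis and lipid droplets rose. In this list 29 of 38 genes tested rose and 3 fell, with a median log2 change of 0.87 (20 and 3 with the *Xist* covariate, 16 and 1 without both *Xist* hearts). The cytosolic FA carrier *Fabp3* was its most abundant gene at 1281, 1214 and 1242 FPKM at E18.5d against 2729.5, 2991 and 2798 at P1d (log2 change 1.19 ± 0.07 SE, adjusted p = 7.12e-05). *Fabp4*, the carrier of endothelium and fat cells, rose from a mean of 253 ± 5.50 to 527 ± 76.1 FPKM (SD, n = 3, log2 change 1.05 ± 0.10 SE, adjusted p = 0.000393). The fallen members were *G0s2*, the inhibitor of the triglyceride lipase ATGL, at 38.5, 42.4 and 45.6 FPKM at E18.5d against 16.4, 14.4 and 12.3 at P1d (log2 change -1.50 ± 0.11 SE, adjusted p = 0.000142), *Fabp5* at a log2 change of -0.60, and the acyl-CoA synthetase *Acsl5* at -0.58. *Angptl4* and *G0s2*, brakes on a lipase outside and inside the cell, thus went opposite ways. Fat cells can carry some of these genes: of the brown fat list, 4 of 5 genes tested rose and 0 fell, with a median log2 change of 0.69 (3 and 0 with the *Xist* covariate, 2 and 0 without both *Xist* hearts), and its summed level rose from 845 to 858 FPKM at E18.5d to 1304 to 1352 FPKM at P1d. Its defining genes *Ucp1* and *Elovl3* were listed at 0 in the E18.5d hearts and were at 0 to 1.31 FPKM at P1d, while *Cidea*, a lipid droplet protein, stood at 7.77, 5.56 and 6.80 FPKM at E18.5d against 22.4, 22.96 and 21.6 at P1d (log2 change 1.61 ± 0.11 SE, adjusted p = 9.97e-05). The part of fat cells in these values was not tested.

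Fewer of the regulators that switch on FA genes passed. Of the PPAR, ERR and PGC-1 regulators, 8 of 23 genes tested rose and 3 fell, with a median log2 change of 0.11 (2 and 1 with the *Xist* covariate, 0 and 0 without both *Xist* hearts, 3 and 5 at equal sums). For these regulators, the number higher was 3 without E18.5d replicates 1 or 3 or P1d replicate 1 and 5 without E18.5d replicate 2. *Ppargc1a*, the coactivator PGC-1 alpha, stood at 29.1, 30.3 and 30.6 FPKM at E18.5d against 46.3, 53.3 and 47.7 at P1d (log2 change 0.69 ± 0.07 SE, adjusted p = 0.000505). *Klf15*, a factor of FA and amino acid use in muscle, rose from a mean of 8.60 ± 0.729 to 19.1 ± 5.85 FPKM (SD, n = 3, log2 change 1.02 ± 0.21 SE, adjusted p = 0.00819). *Lpin1*, a phosphatidate phosphatase that also acts as a coactivator, rose from a mean of 6.71 ± 0.687 to 13.3 ± 1.46 FPKM (SD, n = 3, log2 change 0.89 ± 0.10 SE, adjusted p = 0.000819). *Prkaa1*, a catalytic subunit of AMP kinase, stood at 9.53, 9.68 and 9.74 FPKM at E18.5d against 6.05, 5.98 and 6.66 at P1d (log2 change -0.56 ± 0.07 SE, adjusted p = 0.00132). Among the mitochondrial carriers of the Slc25 family, 11 of 36 genes tested rose and 3 fell, with a median log2 change of 0.10 (5 and 0 with the *Xist* covariate, 2 and 0 without both *Xist* hearts). *Slc25a20*, which carries acylcarnitine into the mitochondrion, stood at 34.9, 30.6 and 32.0 FPKM at E18.5d against 87.7, 93.9 and 92.2 at P1d (log2 change 1.46 ± 0.07 SE, adjusted p = 3.41e-05). *Slc25a42*, a carrier of coenzyme A, rose from a mean of 3.82 ± 0.529 to 8.53 ± 1.30 FPKM (SD, n = 3, log2 change 0.98 ± 0.13 SE, adjusted p = 0.00136). The ADP and ATP carrier *Slc25a4*, the most abundant of the family, rose from a mean of 866 ± 13.6 to 1187 ± 39.1 FPKM (SD, n = 3, log2 change 0.45 ± 0.06 SE, adjusted p = 0.0016). *Klf15* did not stay past the threshold once *Xist* was a covariate.

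Genes for the entry of sugar and lactate split. Among pyruvate, glucose and lactate entry, 11 of 29 genes tested rose and 7 fell, with a median log2 change of 0.04 (7 and 3 with the *Xist* covariate, 5 and 2 without both *Xist* hearts, 7 and 9 at equal sums). In the sugar and lactate list, the number higher was 7 without E18.5d replicate 3 or P1d replicates 1 or 2, and the number lower was 4 without E18.5d replicates 1 or 2. The glucose transporter of the foetal heart, *Slc2a1* (GLUT1), stood at 25.9, 25.5 and 25.7 FPKM at E18.5d against 5.70, 6.69 and 5.11 at P1d (log2 change -1.97 ± 0.09 SE, adjusted p = 3.46e-05). *Pdk1*, the pyruvate dehydrogenase kinase that hypoxia induces, fell from a mean of 90.4 ± 2.10 to 62.5 ± 3.23 FPKM (SD, n = 3, log2 change -0.53 ± 0.06 SE, adjusted p = 0.000832), opposite to *Pdk4*. *Fbp2*, the muscle fructose bisphosphatase of gluconeogenesis, stood at 0, 0.03 and 0.06 FPKM at E18.5d against 3.02, 4.03 and 3.53 at P1d (log2 change 2.13 ± 0.13 SE, adjusted p = 7.84e-05). In glycogen turnover, 4 of 22 genes tested rose and 5 fell, with a median log2 change of -0.02 (1 and 4 with the *Xist* covariate, 0 and 3 without both *Xist* hearts, 5 and 5 at equal sums of protein-coding nuclear genes, 6 and 5 by median of ratios, 6 and 5 by quantile normalization). For the glycogen turnover list, the number higher was 2 without E18.5d replicates 1 or 3. The fallen members included *Ppp1r3c*, which brings a phosphatase to glycogen, at 113, 106 and 109 FPKM at E18.5d against 19.7, 28.9 and 23.97 at P1d (log2 change -2.15 ± 0.13 SE, adjusted p = 6.36e-05), the related *Ppp1r3b* at a log2 change of -1.30, and the muscle glycogen synthase *Gys1* at -0.74. *Pygb*, a glycogen phosphorylase, rose from a mean of 161 ± 2.15 to 228 ± 21.1 FPKM (SD, n = 3, log2 change 0.49 ± 0.08 SE, adjusted p = 0.0024).

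Few genes of the TCA cycle passed: 5 of 30 genes tested rose and 2 fell, with a median log2 change of 0.06 (3 and 2 with the *Xist* covariate, 0 and 0 without both *Xist* hearts, 3 and 3 at equal sums). The list also holds genes of anaplerosis, which refills the cycle, and the 2 fallen members, *Me2* and *Pcx*, are of this kind. Of its members 16.7% rose and 6.67% fell, against 15.9% and 24.5% of all genes tested. The 3 malic enzymes parted, with *Me1* of the cytosol (9.50 ± 0.796 to 16.6 ± 1.22 FPKM) and *Me3* of the mitochondrion (7.97 ± 0.653 to 14.7 ± 1.57 FPKM) higher and *Me2* (10.2 ± 0.257 to 5.13 ± 0.997 FPKM) lower, as means ± SD of 3 hearts. Of the genes for branched-chain amino acid breakdown, 5 of 21 genes tested rose and 4 fell, with a median log2 change of -0.10 (1 and 0 with the *Xist* covariate, 0 and 0 without both *Xist* hearts, 3 and 6 at equal sums). In the branched-chain amino acid breakdown list, the number lower was 1 without E18.5d replicate 1 and 2 without E18.5d replicate 2. *Bckdha*, a subunit of the branched-chain ketoacid dehydrogenase, stood at 21.5, 23.02 and 20.3 FPKM at E18.5d against 53.9, 63.1 and 43.3 at P1d (log2 change 1.25 ± 0.13 SE, adjusted p = 0.000532). Its partner *Bckdhb* went the other way with a log2 change of -0.28. Among creatine and adenylate kinases, 5 of 16 genes tested rose and 4 fell, with a median log2 change of -0.11 (1 and 3 with the *Xist* covariate, 0 and 2 without both *Xist* hearts, 2 and 6 at equal sums). This list also holds genes that are not kinases. Its risen members included the carriers *Slc25a4*, *Slc25a3* and *Slc6a8*, and its fallen ones *Gamt*. *Slc25a4* and *Slc25a3* also belong to the Slc25 family above. For the creatine and adenylate kinases list, the number higher was 2 without E18.5d replicates 1 or 2 or P1d replicates 1 or 2 and 3 without E18.5d replicate 3 or P1d replicate 3. *Ak4*, a mitochondrial adenylate kinase, stood at 13.6, 17.9 and 14.96 FPKM at E18.5d against 3.99, 4.51 and 3.47 at P1d (log2 change -1.72 ± 0.12 SE, adjusted p = 0.00012). *Ckb*, the brain-type creatine kinase of foetal muscle, fell from a mean of 95.7 ± 3.97 to 50.6 ± 3.59 FPKM (SD, n = 3, log2 change -0.91 ± 0.07 SE, adjusted p = 0.000163). The mitochondrial creatine kinase *Ckmt2* rose from a mean of 89.9 ± 6.74 to 128 ± 8.76 FPKM (SD, n = 3, log2 change 0.51 ± 0.08 SE, adjusted p = 0.00275). *Bckdhb* did not pass without E18.5d replicates 1 or 2 (adjusted p = 0.0537 to 0.0612). The *Xist* covariate raised the adjusted p of *Bckdhb* and *Ckmt2* above the threshold.

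Most genes of sterol and nucleotide synthesis were lower at P1d. In sterol synthesis, 3 of 24 genes tested rose and 16 fell, with a median log2 change of -0.55 (1 and 13 with the *Xist* covariate, 1 and 0 without both *Xist* hearts). *Sqle*, which makes squalene epoxide, stood at 13.1, 13.3 and 9.82 FPKM at E18.5d against 4.95, 3.19 and 6.87 at P1d (log2 change -1.16 ± 0.23 SE, adjusted p = 0.00655). *Idi1*, an isomerase of the isoprenoid steps, stood at 17.7, 19.1 and 16.7 FPKM at E18.5d against 5.12, 5.90 and 10.6 at P1d (log2 change -1.25 ± 0.22 SE, adjusted p = 0.00426). P1d replicate 3 was the P1d heart nearest to E18.5d in both. The rising members were *Hsd17b7*, *Fdft1* and *Scap*, the chaperone of the SREBP factors, with log2 changes of 0.83, 0.42 and 0.45. In FA synthesis and desaturation, 3 of 16 genes tested rose and 6 fell, with a median log2 change of -0.20 (2 and 5 with the *Xist* covariate, 1 and 1 without both *Xist* hearts). *Scd2*, the desaturase of foetal tissue, stood at 171, 191 and 161 FPKM at E18.5d against 74.5, 76.2 and 90.4 at P1d (log2 change -1.11 ± 0.10 SE, adjusted p = 0.000263), against the rise of *Scd4* in the same family. The synthase *Fasn* had a log2 change of -0.03 and overlapping hearts. In nucleotide synthesis, 0 of 27 genes tested rose and 19 fell, with a median log2 change of -0.54 (0 and 13 with the *Xist* covariate, 0 and 7 without both *Xist* hearts). The ribonucleotide reductase subunit *Rrm2* stood at 71.6, 64.0 and 67.9 FPKM at E18.5d against 12.1, 17.6 and 21.2 at P1d (log2 change -1.97 ± 0.18 SE, adjusted p = 0.00029). Thymidylate synthase, *Tyms*, stood at 22.4, 16.5 and 19.1 FPKM at E18.5d against 5.76, 4.13 and 6.86 at P1d (log2 change -1.64 ± 0.17 SE, adjusted p = 0.000532). *Fdft1* did not pass without E18.5d replicates 1 or 3 (adjusted p = 0.0559 to 0.0701). *Sqle*, *Fdft1* and *Scap* did not stay past the threshold once *Xist* was a covariate.

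Cells sense oxygen through the prolyl hydroxylases, which mark the HIF factors for destruction when oxygen is present. HIF binds the core ACGTG in the promoters of genes for glycolysis, lactate export, vessel growth and collagen hydroxylation. In the list of HIF factors, prolyl hydroxylases and hypoxia targets, 5 of 37 genes tested rose and 18 fell, with a median log2 change of -0.48 (2 and 13 with the *Xist* covariate, 1 and 9 without both *Xist* hearts). The letters ACGTG were looked for on both strands in the 300 bases from 250 before to 50 after each start in the RefSeq annotation of GRCm38.p6. They stood in 13 of the 16 fallen and 2 of the 3 risen genes that have such a window, in 18 of 30 of all tested members (60%) and in 19.7% of the windows of all 27025 genes. The 250 bases before the start of 3 of the most fallen genes are shown, 5′ to 3′ on the strand of the gene, with ACGTG or its reverse complement CACGT in capitals. They are *Slc16a3* at chr11:120948817-120949066, plus strand, *P4ha1* at chr10:59323046-59323295, plus strand and *Ankrd37* at chr8:45999851-46000100, minus strand.
Slc16a3: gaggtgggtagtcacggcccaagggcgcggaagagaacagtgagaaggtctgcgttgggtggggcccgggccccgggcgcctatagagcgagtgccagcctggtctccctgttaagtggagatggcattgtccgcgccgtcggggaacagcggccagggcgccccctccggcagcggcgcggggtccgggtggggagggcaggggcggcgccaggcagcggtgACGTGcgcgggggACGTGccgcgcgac
P4ha1: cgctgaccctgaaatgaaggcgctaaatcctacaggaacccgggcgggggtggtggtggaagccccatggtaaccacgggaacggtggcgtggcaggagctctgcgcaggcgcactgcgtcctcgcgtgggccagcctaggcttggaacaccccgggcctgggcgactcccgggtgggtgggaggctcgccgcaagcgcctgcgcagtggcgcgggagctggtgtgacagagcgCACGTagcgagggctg
Ankrd37: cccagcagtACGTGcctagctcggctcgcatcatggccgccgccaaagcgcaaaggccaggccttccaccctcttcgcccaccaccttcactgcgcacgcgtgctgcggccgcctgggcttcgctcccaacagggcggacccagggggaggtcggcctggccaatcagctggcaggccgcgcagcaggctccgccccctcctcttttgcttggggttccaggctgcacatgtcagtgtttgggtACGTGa
The RefSeq start differs from the outermost GENCODE M21 start by 587 bases in *Slc16a3*, by 0 in *P4ha1* and by 5857 in *Ankrd37*. A match describes the letters only. Here and for the motifs below, the windows of all genes include genes under the filter, so the shares compare unlike sets. This list was also made of genes already known as hypoxia targets or as part of the oxygen sensor.

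*P4ha1*, the catalytic subunit of collagen prolyl 4-hydroxylase, stood at 37.4, 34.6 and 36.1 FPKM at E18.5d against 8.87, 7.86 and 8.48 at P1d (log2 change -1.98 ± 0.07 SE, adjusted p = 1.03e-05). *Ankrd37*, an ankyrin repeat protein, stood at 5.22, 5.66 and 5.53 FPKM at E18.5d against 1.06, 1.05 and 0.81 at P1d (log2 change -1.72 ± 0.10 SE, adjusted p = 6.84e-05). *Slc16a3* and *Slc2a1*, given above, were the other members with the largest decreases. All 4 had P1d hearts within a narrow band far under the E18.5d hearts, but they were chosen among genes without overlap. The most abundant member, the mitochondrial *Fam162a*, stood at 239, 229 and 224 FPKM at E18.5d against 89.6, 89.5 and 119 at P1d (log2 change -1.22 ± 0.11 SE, adjusted p = 0.000336), with the highest P1d value in replicate 3. The 5 members that rose included *Hmox1*, the haem oxygenase, at 6.64, 9.11 and 7.14 FPKM at E18.5d against 16.9, 15.8 and 14.9 at P1d (log2 change 0.97 ± 0.12 SE, adjusted p = 0.000858). *Ddit4*, an inhibitor of mTOR, stood at 7.22, 7.70 and 7.33 FPKM at E18.5d against 17.3, 22.0 and 13.3 at P1d (log2 change 1.11 ± 0.16 SE, adjusted p = 0.00182). Both are also induced by signals other than low oxygen. The part of oxygen in the falls and in the rises of this list was not tested. In the same windows, the sterol regulatory element was found in 0 of 17 genes of sterol synthesis and in 0.0851% of all genes. The PPAR element, as AGGTCA repeated after 1 base, was found in 0 of 30 genes of FA uptake, in 0 of 22 of the PPAR, ERR and PGC-1 regulators and in 0.0481% of all.

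Glucocorticoids surge around birth and act through a nuclear receptor on metabolic and clock genes. Most genes of their list rose. In the glucocorticoid response list, 19 of 28 genes tested rose and 0 fell, with a median log2 change of 0.87 (11 and 0 with the *Xist* covariate, 6 and 0 without both *Xist* hearts). *Klf9*, a factor induced by glucocorticoid and thyroid hormone, stood at 3.68, 4.18 and 4.46 FPKM at E18.5d against 21.5, 24.3 and 20.7 at P1d (log2 change 2.18 ± 0.09 SE, adjusted p = 2.53e-05). *Per1*, a repressor of the clock that glucocorticoids also induce, stood at 16.5, 18.6 and 17.0 FPKM at E18.5d against 86.2, 104 and 72.7 at P1d (log2 change 2.26 ± 0.13 SE, adjusted p = 5.82e-05). The largest increases of this list were those of *Pdk4* and *Angptl4*, given above. They are also counted in the pyruvate and FA uptake lists, and *Per1* in the clock list. Of the 19 risen genes, 2 had a mean under 1 FPKM at E18.5d and so passed the filter through their P1d values. The metallothionein *Mt1*, the most abundant member, had overlapping hearts and a log2 change of 0.39. The letters of the receptor's element, GNACA and TGTNC with 3 bases between, were found in 1 of 23 windows of the list (that of *Mt1*), in 0 of the 16 windows of its risen genes and in 0.455% of all windows. Of the thyroid hormone receptors, deiodinases and transporters, 3 of 7 genes tested rose and 1 fell, with a median log2 change of 0.17 (1 and 0 with the *Xist* covariate, 1 and 0 without both *Xist* hearts, 2 and 2 at equal sums). The receptor *Thra* rose from a mean of 58.6 ± 1.496 to 83.3 ± 9.32 FPKM (SD, n = 3, log2 change 0.50 ± 0.09 SE, adjusted p = 0.00389), and the transporter *Slc16a10* had a log2 change of -0.34. *Slc16a10* did not pass without E18.5d replicates 1, 2 or 3 (adjusted p = 0.0585 to 0.0715). *Thra* and *Slc16a10* did not stay past the threshold once *Xist* was a covariate.

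In the circadian clock list, 16 of 24 genes tested rose and 1 fell, with a median log2 change of 0.78 (12 and 0 with the *Xist* covariate, 10 and 0 without both *Xist* hearts). The clock runs as a loop in which CLOCK and BMAL1 bind the E-box CACGTG of the *Per*, *Cry*, *Nr1d1* and *Dbp* genes, whose products then repress or drive other members. *Nr1d1*, the repressor REV-ERB alpha, stood at 4.37, 2.86 and 3.57 FPKM at E18.5d against 17.0, 14.1 and 24.2 at P1d (log2 change 2.06 ± 0.20 SE, adjusted p = 0.000402). *Dbp*, an output factor of the loop that binds D-boxes, stood at 7.46, 8.17 and 7.94 FPKM at E18.5d against 22.4, 23.8 and 30.0 at P1d (log2 change 1.57 ± 0.11 SE, adjusted p = 0.00012). In both the lowest P1d heart was well above the highest E18.5d heart, but both were chosen among genes without overlap. The only fallen member was *Bhlhe40*, a repressor that is also a hypoxia target, at 19.6, 20.3 and 19.1 FPKM at E18.5d against 9.80, 12.5 and 17.6 at P1d (log2 change -0.56 ± 0.18 SE, adjusted p = 0.04). The times of day at which the hearts were taken are not given in the sources used here. CACGTG stood in 5 of 19 windows of tested members (26.3%), in 3 of the 12 of risen members and in 7.22% of all windows, and it holds the hypoxia core within it. The D-box TTATGNAA stood in 2 of 19 (10.5%) and in 3.54% of all windows. The 250 bases before the start of *Per1* (chr11:69098699-69098948, plus strand) carry CACGTG once and the D-box once, in capitals below.
Per1: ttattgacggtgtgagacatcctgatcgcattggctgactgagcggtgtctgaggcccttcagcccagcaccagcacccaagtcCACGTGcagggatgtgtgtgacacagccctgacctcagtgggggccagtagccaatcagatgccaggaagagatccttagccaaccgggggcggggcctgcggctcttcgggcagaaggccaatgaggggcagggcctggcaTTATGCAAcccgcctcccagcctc
The RefSeq start used here lies 3732 bases from the outermost GENCODE M21 start of *Per1*. *Bhlhe40* did not pass without E18.5d replicates 1, 2 or 3 or P1d replicates 1 or 2 (adjusted p = 0.0827 to 0.109). *Bhlhe40* did not pass the threshold with the *Xist* covariate.

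Immediate early genes, which answer growth factors, stretch and stress within minutes, rose as well: 14 of 24 genes tested rose and 2 fell, with a median log2 change of 0.43 (9 and 1 with the *Xist* covariate, 4 and 1 without both *Xist* hearts). *Nr4a1*, a nuclear orphan receptor, stood at 4.44, 3.71 and 4.10 FPKM at E18.5d against 11.8, 12.4 and 9.90 at P1d (log2 change 1.28 ± 0.11 SE, adjusted p = 0.0002). *Fos* stood at 2.28, 1.98 and 2.03 FPKM at E18.5d against 7.34, 4.73 and 6.52 at P1d (log2 change 1.20 ± 0.15 SE, adjusted p = 0.000976). *Atf3*, a stress-induced repressor, stood at 9.22, 6.31 and 13.2 FPKM at E18.5d against 33.5, 32.7 and 19.1 at P1d (log2 change 1.49 ± 0.28 SE, adjusted p = 0.00589). The fallen members were *Ier3* and *Dusp6*, the ERK phosphatase, at log2 changes of -0.77 and -0.29. The cyclic AMP response element, as TGAC followed by GTCA, stood in 2 of 21 windows of the list (9.52%) and in 1.87% of all windows. In adrenergic, muscarinic and natriuretic signalling, 13 of 33 genes tested rose and 1 fell, with a median log2 change of 0.27 (6 and 0 with the *Xist* covariate, 1 and 0 without both *Xist* hearts). In this signalling list, the number higher was 8 without E18.5d replicate 1. The alpha-1B receptor *Adra1b* stood at 3.77, 3.99 and 4.76 FPKM at E18.5d against 14.9, 11.2 and 13.4 at P1d (log2 change 1.45 ± 0.12 SE, adjusted p = 0.000223). *Rgs2*, which shortens the signal of such receptors, rose from a mean of 5.85 ± 0.211 to 11.2 ± 1.499 FPKM (SD, n = 3, log2 change 0.83 ± 0.10 SE, adjusted p = 0.000956). *Nppa*, the atrial natriuretic peptide, was at 2204, 2146 and 1958 FPKM at E18.5d against 2870.3, 2485 and 2259.6 at P1d with an adjusted p of 0.0837, short of the threshold. *Npr2*, the receptor of C-type natriuretic peptide, rose from a mean of 10.5 ± 1.04 to 19.4 ± 2.95 FPKM (SD, n = 3, log2 change 0.83 ± 0.12 SE, adjusted p = 0.00219). *Dusp6* did not pass without E18.5d replicates 1 or 2 or P1d replicate 3 (adjusted p = 0.0599 to 0.0928). The *Xist* covariate raised the adjusted p of *Dusp6* above the threshold.

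**Figure D3:**
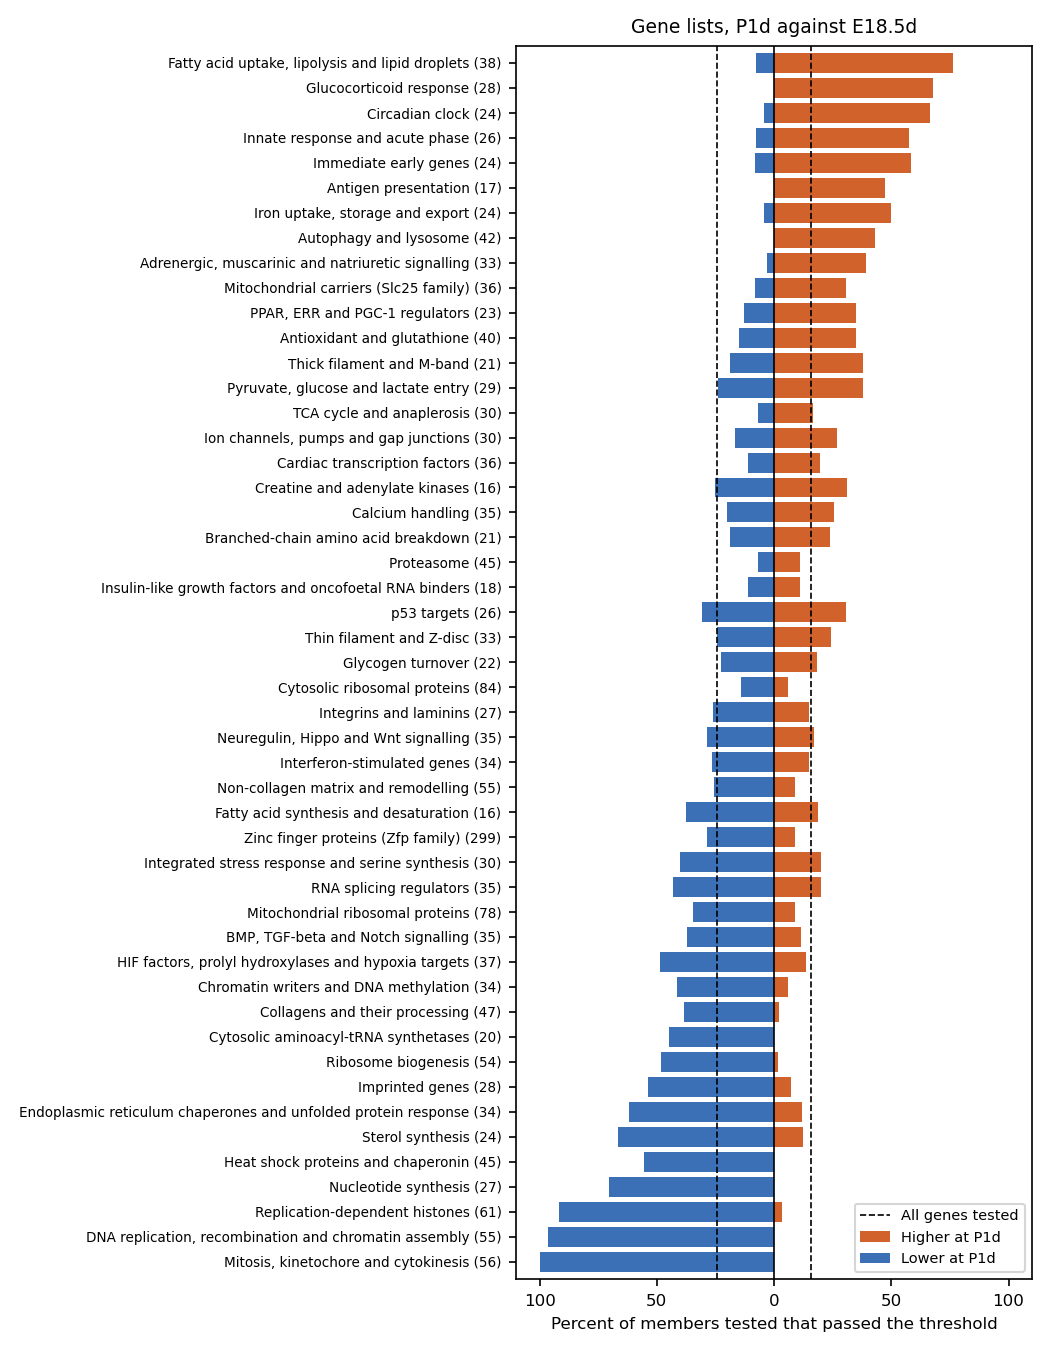
For each gene list with at least 15 genes tested, the percent of these that rose (right) or fell (left) at P1d (limma, adjusted p under 0.05), ordered by the difference of both and with the share of all genes as broken lines. Lists of cell division stand out with nearly all genes lower (56 of 56 in mitosis), and FA uptake, glucocorticoid response and the clock with most genes higher.

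The machinery of cell division was lower almost without exception. Replication-dependent histones are made in S phase to pack the new DNA. In that list 2 of 61 genes tested rose and 56 fell, with a median log2 change of -1.65 (0 and 50 with the *Xist* covariate, 0 and 32 without both *Xist* hearts). The most abundant, *Hist1h4d*, stood at 2526, 2379 and 2190.2 FPKM at E18.5d against 964, 1329 and 1059 at P1d (log2 change -1.09 ± 0.13 SE, adjusted p = 0.000798). The 2 that rose were the linker histones *Hist1h1c* (226 ± 33.7 to 408 ± 78.7 FPKM) and *Hist1h1e* (465 ± 50.3 to 579.6 ± 32.0 FPKM), with means given ± SD of 3 hearts, the former known to be made outside S phase as well. Reads of these intronless, near-identical genes may be split among copies, so single genes are uncertain. *Hist1h1e* did not pass without E18.5d replicates 2 or 3 or P1d replicates 1 or 2 (adjusted p = 0.0711 to 0.0781). *Hist1h1c* and *Hist1h1e* did not pass the threshold with the *Xist* covariate.

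In DNA replication, recombination and chromatin assembly, 0 of 55 genes tested rose and 53 fell, with a median log2 change of -1.15 (0 and 44 with the *Xist* covariate, 0 and 25 without both *Xist* hearts). *Uhrf1*, which copies DNA methylation to the new strand, stood at 39.8, 35.97 and 31.9 FPKM at E18.5d against 7, 6.20 and 9.69 at P1d (log2 change -2.11 ± 0.15 SE, adjusted p = 0.000124). *Clspn*, a checkpoint adaptor at the fork, stood at 8.64, 9.12 and 8.59 FPKM at E18.5d against 1.25, 1.1 and 1.90 at P1d (log2 change -2.03 ± 0.13 SE, adjusted p = 9.06e-05). *Exo1*, an exonuclease of repair, stood at 6.15, 7.46 and 7.20 FPKM at E18.5d against 1.03, 0.7 and 1.25 at P1d (log2 change -1.999 ± 0.13 SE, adjusted p = 9.55e-05). The replication protein *Rpa1*, the most abundant member after *Top2a*, fell from a mean of 60.8 ± 6.37 to 38.4 ± 1.26 FPKM (SD, n = 3, log2 change -0.64 ± 0.09 SE, adjusted p = 0.00137). The E2F site TTTNGCGC stood in 7 of 42 windows (16.7%) against 1.37% of all windows, in 5 of 50 windows of the mitosis list and in 0 of 23 of nucleotide synthesis. In mitosis, kinetochore and cytokinesis, 0 of 56 genes tested rose and 56 fell, with a median log2 change of -1.51 (0 and 53 with the *Xist* covariate, 0 and 46 without both *Xist* hearts). *Aurka*, the Aurora A kinase of the spindle poles, stood at 31.8, 33.0 and 32.6 FPKM at E18.5d against 6.84, 8.95 and 7.21 at P1d (log2 change -1.96 ± 0.10 SE, adjusted p = 3.96e-05). The kinetochore protein *Nuf2* stood at 18.7, 17.8 and 18.99 FPKM at E18.5d against 3.36, 4.30 and 4.56 at P1d (log2 change -1.95 ± 0.10 SE, adjusted p = 5.21e-05). The condensin subunit *Smc2* stood at 15.4, 12.7 and 14.4 FPKM at E18.5d against 1.70, 2.75 and 3.57 at P1d (log2 change -2.07 ± 0.19 SE, adjusted p = 0.00029). No P1d heart came near an E18.5d heart in any of them, but they were chosen among genes whose stages did not overlap.

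Genes of this class are known to be repressed in resting cells through the CHR element TTTGAA near the start, often with CCAAT boxes before it. TTTGAA stood in 36 of the 50 windows of mitosis genes (72.0%) and in 18.1% of all windows, and CCAAT in 35 of 50 (70.0%) and in 37.9% of all. The 250 bases before the start of *Ube2c* (chr2:164769679-164769928, plus strand), the conjugating enzyme of the anaphase-promoting complex, and of *Prc1* (chr7:80294201-80294450, plus strand), which bundles microtubules of the midzone, are shown with both motifs in capitals, on either strand, and in *Prc1* the bases shown hold CCAAT alone.
Ube2c: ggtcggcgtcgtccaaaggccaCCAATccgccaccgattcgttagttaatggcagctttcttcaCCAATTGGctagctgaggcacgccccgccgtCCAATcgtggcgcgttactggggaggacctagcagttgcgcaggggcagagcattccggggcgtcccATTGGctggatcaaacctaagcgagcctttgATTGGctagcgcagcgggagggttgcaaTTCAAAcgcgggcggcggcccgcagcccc
Prc1: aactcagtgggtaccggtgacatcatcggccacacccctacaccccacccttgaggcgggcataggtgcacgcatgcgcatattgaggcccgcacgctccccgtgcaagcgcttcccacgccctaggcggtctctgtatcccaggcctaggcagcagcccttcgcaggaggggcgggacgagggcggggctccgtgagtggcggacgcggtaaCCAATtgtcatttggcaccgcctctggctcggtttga
*Ube2c* stood at 86.3, 86.0 and 77.2 FPKM at E18.5d against 21.6, 25.3 and 22.97 at P1d (log2 change -1.79 ± 0.08 SE, adjusted p = 2.9e-05). *Prc1* stood at 46.0, 48.0 and 52.97 FPKM at E18.5d against 11.6, 12.3 and 12.3 at P1d (log2 change -1.94 ± 0.07 SE, adjusted p = 1.42e-05). In the plot of list levels by heart, the division lists have the widest gap between the stages.

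**Figure D4:**
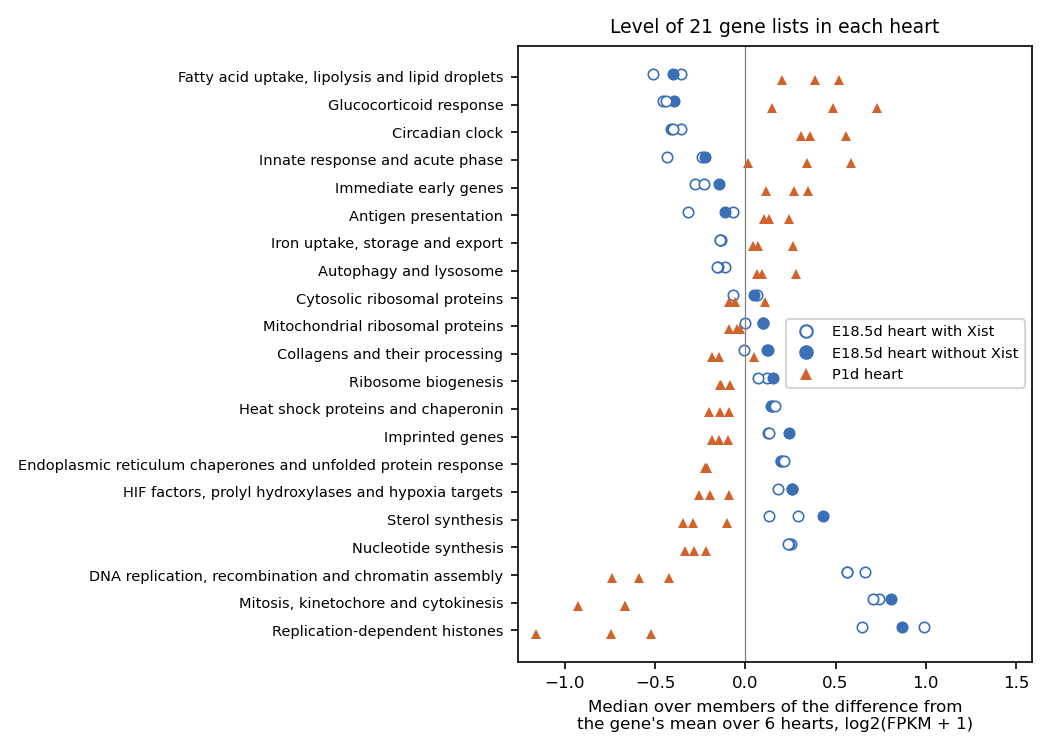
Level of 21 gene lists in each heart, as the median over the tested members of the difference from the gene's mean over the 6 hearts, in log2(FPKM + 1). Open circles are the E18.5d hearts that express *Xist*, filled circles the other E18.5d heart and triangles the P1d hearts, and the stages are apart in all but the cytosolic ribosomal protein and collagen rows.

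Over the 54 lists with at least 15 genes tested, this list level did not overlap between the stages in 34. Of all single genes tested, 54.2% did not overlap either, and some lists share genes, so the count says little about the lists. In 16 of these 34 lists P1d replicate 3 was the P1d heart nearest to the E18.5d mean, against 9 for each other P1d heart. Leaving it out gave 2297 risen and 3266 fallen genes. Of chromatin writers and DNA methylation genes, 2 of 34 genes tested rose and 14 fell, with a median log2 change of -0.31 (1 and 11 with the *Xist* covariate, 0 and 5 without both *Xist* hearts). The B-type lamin *Lmnb1* stood at 53.6, 52.6 and 51.9 FPKM at E18.5d against 15.9, 15 and 19.9 at P1d (log2 change -1.59 ± 0.10 SE, adjusted p = 8.71e-05). The maintenance methyltransferase *Dnmt1* stood at 43.7, 41.6 and 39.98 FPKM at E18.5d against 13.3, 13.6 and 17.3 at P1d (log2 change -1.45 ± 0.10 SE, adjusted p = 0.000122). *Ezh2*, the H3K27 methyltransferase of dividing cells, stood at 26.7, 28.8 and 27.3 FPKM at E18.5d against 11.7, 11.3 and 12.2 at P1d (log2 change -1.16 ± 0.07 SE, adjusted p = 5.87e-05). Its paralog of resting cells, *Ezh1*, rose from a mean of 10.2 ± 1.07 to 17.2 ± 2.73 FPKM (SD, n = 3, log2 change 0.69 ± 0.12 SE, adjusted p = 0.00433). Among p53 targets, 8 of 26 genes tested rose and 8 fell, with a median log2 change of -0.04 (1 and 3 with the *Xist* covariate, 1 and 2 without both *Xist* hearts, 3 and 8 at equal sums, 8 and 6 at equal sums of protein-coding nuclear genes, 8 and 6 by median of ratios, 8 and 6 by quantile normalization). For the p53 targets list, the number lower was 5 without E18.5d replicates 1, 2 or 3. *Sesn1* and *Trp53inp1* rose with log2 changes of 1.15 and 1.40, and the fallen members included the mitotic genes *Gtse1* and *Ckap2* at -1.53 and -1.17. Of the Zfp family of zinc finger proteins, 27 of 299 genes tested rose and 85 fell, with a median log2 change of -0.16 (4 and 29 with the *Xist* covariate, 1 and 8 without both *Xist* hearts). In the Zfp family, the number higher was 16 without E18.5d replicate 2 and 17 without E18.5d replicate 1, and the number lower was 54 without E18.5d replicate 2. The *Xist* covariate raised the adjusted p of *Sesn1* above the threshold.

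Most genes of protein folding fell. Of heat shock proteins and chaperonin, 0 of 45 genes tested rose and 25 fell, with a median log2 change of -0.29 (0 and 12 with the *Xist* covariate, 0 and 4 without both *Xist* hearts). *Hspa8*, the constitutive HSC70 and the most abundant member, stood at 1120.5, 1139.8 and 1203 FPKM at E18.5d against 849, 873 and 838 at P1d (log2 change -0.44 ± 0.06 SE, adjusted p = 0.00206). *Hsph1*, a nucleotide exchange factor of HSP70, stood at 13.2, 17.7 and 17.4 FPKM at E18.5d against 4.64, 4.14 and 5.22 at P1d (log2 change -1.59 ± 0.13 SE, adjusted p = 0.000197). *Stip1*, which links HSP70 to HSP90, stood at 106, 107 and 105 FPKM at E18.5d against 46.6, 41.9 and 55.9 at P1d (log2 change -1.13 ± 0.10 SE, adjusted p = 0.000291). The heat shock element, as GAA, TTC and GAA with 2 bases between each, stood in 3 of 37 windows (8.11%) and in 0.544% of all windows. Of endoplasmic reticulum chaperones and the unfolded protein response, 4 of 34 genes tested rose and 21 fell, with a median log2 change of -0.39 (1 and 15 with the *Xist* covariate, 0 and 11 without both *Xist* hearts). For the endoplasmic reticulum list, the number higher was 2 without E18.5d replicates 1 or 2. *Calr*, the calcium-binding chaperone calreticulin, stood at 321, 315 and 323 FPKM at E18.5d against 151, 136 and 154 at P1d (log2 change -1.12 ± 0.07 SE, adjusted p = 6.66e-05). *Hsp90b1* (GRP94) stood at 172, 185 and 207 FPKM at E18.5d against 85.8, 74.8 and 86.5 at P1d (log2 change -1.18 ± 0.09 SE, adjusted p = 0.000153). *Sdf2l1* stood at 9.97, 8.59 and 8.45 FPKM at E18.5d against 2.08, 2.02 and 1.63 at P1d (log2 change -1.78 ± 0.11 SE, adjusted p = 6.66e-05). *Herpud1*, which serves the degradation of misfolded proteins, rose from a mean of 43.8 ± 1.75 to 93.7 ± 19.4 FPKM (SD, n = 3, log2 change 1.06 ± 0.14 SE, adjusted p = 0.00136). In the integrated stress response and serine synthesis, 6 of 30 genes tested rose and 12 fell, with a median log2 change of -0.16 (3 and 7 with the *Xist* covariate, 2 and 4 without both *Xist* hearts). The members that fell the most, *Mthfd2*, *Pycr1* and *Psat1*, make one-carbon units, proline and serine (-1.69, -1.25 and -1.03 in log2 change), and the risen ones included the phosphatase adaptor *Ppp1r15a* (log2 change 1.24 ± 0.11 SE, adjusted p = 0.000268). The ATF4 composite element TGATGNAA stood in 7 of 27 windows of this list (25.9%) and in 4.04% of all windows. *Hspa8* did not stay past the threshold once *Xist* was a covariate.

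Autophagy and lysosome genes went the other way: 18 of 42 genes tested rose and 0 fell, with a median log2 change of 0.22 (6 and 0 with the *Xist* covariate, 3 and 0 without both *Xist* hearts). *Pink1*, the kinase that tags damaged mitochondria, stood at 34.8, 33.9 and 30.5 FPKM at E18.5d against 92.8, 102 and 79.7 at P1d (log2 change 1.44 ± 0.10 SE, adjusted p = 0.000108). *Map1lc3b*, a coat protein of the autophagosome, stood at 44.6, 44.6 and 46.2 FPKM at E18.5d against 105, 115 and 82.3 at P1d (log2 change 1.13 ± 0.12 SE, adjusted p = 0.000532). *Sqstm1*, the cargo receptor p62, stood at 91.1, 89.9 and 84.0 FPKM at E18.5d against 165, 227 and 139 at P1d (log2 change 0.97 ± 0.16 SE, adjusted p = 0.00349). The lysosomal protease *Ctsd*, the most abundant member, rose from a mean of 215 ± 11.1 to 300.5 ± 28.5 FPKM (SD, n = 3, log2 change 0.48 ± 0.08 SE, adjusted p = 0.0041). Of the proteasome, 5 of 45 genes tested rose and 3 fell, with a median log2 change of 0.06 (1 and 0 with the *Xist* covariate, 0 and 0 without both *Xist* hearts, 2 and 8 at equal sums). In the proteasome list, the number higher was 2 without E18.5d replicate 2 and 3 without E18.5d replicate 3 or P1d replicate 2. Its changes were within a log2 change of -0.44 (*Psmd14*) and 0.59 (*Psmf1*). *Psmd14* did not pass without E18.5d replicates 1 or 2 or P1d replicate 1 (adjusted p = 0.0512 to 0.0593). *Sqstm1*, *Ctsd* and *Psmd14* did not pass the threshold with the *Xist* covariate.

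Ribosomal proteins form the ribosome, and assembly factors build it in the nucleolus. Of the cytosolic ribosomal proteins, 5 of 84 genes tested rose and 12 fell, with a median log2 change of 0.00 (1 and 0 with the *Xist* covariate, 0 and 0 without both *Xist* hearts, 8 and 6 by median of ratios, 11 and 11 by quantile normalization). For the cytosolic ribosomal proteins list, the number higher was 2 without E18.5d replicates 1 or 2 or P1d replicates 1 or 2 and 3 without E18.5d replicate 3, and the number lower was 2 without E18.5d replicate 2, 5 without E18.5d replicate 1 and 6 without P1d replicate 1. Their genes have many processed copies, so single values are uncertain. Of ribosome biogenesis, 1 of 54 genes tested rose and 26 fell, with a median log2 change of -0.28 (0 and 16 with the *Xist* covariate, 0 and 3 without both *Xist* hearts). *Nop58* and *Nop56*, core proteins of the snoRNP that methylates ribosomal RNA, stood at 33.0, 28.4 and 26.1 FPKM at E18.5d against 16.1, 12.8 and 13.6 at P1d (log2 change -0.99 ± 0.11 SE, adjusted p = 0.000734) and at 40.1, 37.4 and 35.5 FPKM at E18.5d against 21.6, 17.7 and 23.4 at P1d (log2 change -0.83 ± 0.11 SE, adjusted p = 0.00124). *Npm1*, nucleophosmin, fell from a mean of 146 ± 10.9 to 99.1 ± 2.10 FPKM (SD, n = 3, log2 change -0.55 ± 0.07 SE, adjusted p = 0.00111). Of cytosolic aminoacyl-tRNA synthetases, 0 of 20 genes tested rose and 9 fell, with a median log2 change of -0.20 (0 and 4 with the *Xist* covariate, 0 and 0 without both *Xist* hearts), among them *Gars* (-0.50) and *Farsb* (-0.47). In the cytosolic aminoacyl-tRNA synthetases list, the number lower was 5 without E18.5d replicates 1 or 2. Of mitochondrial ribosomal proteins, 7 of 78 genes tested rose and 27 fell, with a median log2 change of -0.14 (1 and 12 with the *Xist* covariate, 0 and 1 without both *Xist* hearts). For the mitochondrial ribosomal proteins list, the number higher was 4 without E18.5d replicates 1 or 3 or P1d replicate 2. *Mrps25* fell from a mean of 26.5 ± 2.07 to 11.9 ± 1.96 FPKM (SD, n = 3, log2 change -1.11 ± 0.12 SE, adjusted p = 0.000677). Of the mRNAs that mitochondria encode themselves, 4 of 13 genes tested rose and 1 fell, with a median log2 change of 0.45 (1 and 0 with the *Xist* covariate, 0 and 0 without both *Xist* hearts, 1 and 1 at equal sums). In the mitochondrially encoded mRNAs list, the number higher was 1 without E18.5d replicate 1 or P1d replicates 1 or 3 and 2 without E18.5d replicate 2. *mt-Co1*, a subunit of cytochrome oxidase, stood at 11480.3, 11115 and 12354 FPKM at E18.5d against 20508, 19182 and 21994 at P1d (log2 change 0.82 ± 0.11 SE, adjusted p = 0.00148). *mt-Nd6*, the mRNA on the other strand of that genome, stood at 354, 468 and 432 FPKM at E18.5d against 231, 202 and 327 at P1d (log2 change -0.74 ± 0.18 SE, adjusted p = 0.0165). *mt-Nd6* did not pass without E18.5d replicates 2 or 3 or P1d replicate 1 (adjusted p = 0.0539 to 0.062). The *Xist* covariate raised the adjusted p of *mt-Nd6* above the threshold.

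Of RNA splicing regulators, 7 of 35 genes tested rose and 15 fell, with a median log2 change of -0.16 (5 and 8 with the *Xist* covariate, 1 and 2 without both *Xist* hearts). *Srsf5* stood at 134, 128 and 128 FPKM at E18.5d against 299.6, 275 and 271 at P1d (log2 change 1.11 ± 0.06 SE, adjusted p = 5.91e-05). *Srsf7*, of the same serine and arginine rich family, stood at 28.5, 27.4 and 28.9 FPKM at E18.5d against 9.23, 11.1 and 12.5 at P1d (log2 change -1.30 ± 0.10 SE, adjusted p = 0.00018). *Rbm24* and *Rbfox1*, regulators of muscle splicing, rose with log2 changes of 0.48 and 0.83. *Hnrnpa2b1* and *Hnrnpc*, which bind nascent RNA, fell with log2 changes of -0.99 and -0.83.

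The sarcomere changed in its isoforms. Of thick filament and M-band genes, 8 of 21 genes tested rose and 4 fell, with a median log2 change of 0.15 (4 and 3 with the *Xist* covariate, 1 and 1 without both *Xist* hearts, 3 and 6 at equal sums). The myosin heavy chains, motors of the thick filament, crossed: *Myh6*, the fast alpha chain of the adult mouse ventricle, stood at 3260.0, 3189 and 3209.7 FPKM at E18.5d against 6846, 6408 and 6958 at P1d (log2 change 1.06 ± 0.08 SE, adjusted p = 0.000142). *Myh7*, the slow beta chain of the foetal ventricle, stood at 3656, 3509.7 and 3517 FPKM at E18.5d against 2305, 2017 and 1631 at P1d (log2 change -0.86 ± 0.13 SE, adjusted p = 0.00212). At E18.5d the highest *Myh6* value was under the lowest *Myh7* value, and at P1d the lowest *Myh6* value was over the highest *Myh7* value, in FPKM, which is per length. *Myom2*, an M-band protein, stood at 136, 141 and 122 FPKM at E18.5d against 409.6, 411 and 264 at P1d (log2 change 1.41 ± 0.17 SE, adjusted p = 0.000953). *Myl1*, a light chain of fast skeletal muscle, stood at 179, 166 and 174 FPKM at E18.5d against 58.4, 62.4 and 74.1 at P1d (log2 change -1.41 ± 0.09 SE, adjusted p = 9.3e-05). Of thin filament and Z-disc genes, 8 of 33 genes tested rose and 8 fell, with a median log2 change of 0.00 (3 and 3 with the *Xist* covariate, 2 and 1 without both *Xist* hearts, 3 and 9 at equal sums, 8 and 7 at equal sums of protein-coding nuclear genes, 9 and 6 by median of ratios, 8 and 9 by quantile normalization). *Tcap*, telethonin, which caps titin at the Z-disc, stood at 72.8, 71.1 and 72.0 FPKM at E18.5d against 136, 187 and 173 at P1d (log2 change 1.18 ± 0.11 SE, adjusted p = 0.000386). *Lmod2*, which lengthens the thin filament, stood at 28.5, 31.6 and 47.8 FPKM at E18.5d against 92.7, 103 and 88.5 at P1d (log2 change 1.40 ± 0.18 SE, adjusted p = 0.00112). The non-muscle tropomyosin *Tpm4* fell from a mean of 144 ± 3.34 to 74.5 ± 13.4 FPKM (SD, n = 3, log2 change -0.95 ± 0.12 SE, adjusted p = 0.00103). Of the skeletal muscle list, which shares genes with this one, 0 of 7 genes tested rose and 6 fell, with a median log2 change of -0.46 (0 and 1 with the *Xist* covariate, 0 and 0 without both *Xist* hearts), and its defining genes *Myh3* and *Myog* were at or under 0.33 FPKM. The other defining gene, *Tnnt3*, stood at 3.61, 2.16 and 2.25 FPKM at E18.5d against 1.48, 2.12 and 2.31 at P1d. For the skeletal muscle marker list, the number lower was 2 without E18.5d replicates 1 or 3.

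Of calcium handling genes, 9 of 35 genes tested rose and 7 fell, with a median log2 change of 0.00 (5 and 3 with the *Xist* covariate, 3 and 2 without both *Xist* hearts, 4 and 8 at equal sums). The pump *Atp2a2* (SERCA2), which loads the sarcoplasmic reticulum, stood at 1228, 1197 and 1192 FPKM at E18.5d against 2023, 2093 and 2106 at P1d (log2 change 0.78 ± 0.06 SE, adjusted p = 0.00021). Its inhibitor *Pln* stood at 528, 554 and 570.2 FPKM at E18.5d against 916, 892 and 927 at P1d (log2 change 0.73 ± 0.06 SE, adjusted p = 0.000249). The release channel *Ryr2* stood at 175, 168 and 177 FPKM at E18.5d against 281, 246 and 261 at P1d (log2 change 0.60 ± 0.07 SE, adjusted p = 0.000718). *Casq1*, the calsequestrin of fast skeletal muscle, fell from a mean of 64.2 ± 5.43 to 35.8 ± 2.43 FPKM (SD, n = 3, log2 change -0.82 ± 0.08 SE, adjusted p = 0.000493). Of ion channels, pumps and gap junctions, 8 of 30 genes tested rose and 5 fell, with a median log2 change of 0.15 (2 and 1 with the *Xist* covariate, 0 and 0 without both *Xist* hearts, 4 and 5 at equal sums). In the channel list, the number lower was 2 without E18.5d replicate 2 and 3 without E18.5d replicates 1 or 3 or P1d replicate 1. The pacemaker channel *Hcn4* fell from a mean of 3.71 ± 0.201 to 2.04 ± 0.339 FPKM (SD, n = 3, log2 change -0.64 ± 0.11 SE, adjusted p = 0.00444). The inward rectifier *Kcnj2* fell from a mean of 12.2 ± 0.551 to 5.98 ± 1.42 FPKM (SD, n = 3, log2 change -0.94 ± 0.14 SE, adjusted p = 0.00214). Of cardiac transcription factors, 7 of 36 genes tested rose and 4 fell, with a median log2 change of -0.06 (2 and 1 with the *Xist* covariate, 0 and 1 without both *Xist* hearts, 0 and 5 at equal sums). For the cardiac transcription factors list, the number higher was 3 without E18.5d replicates 2 or 3 or P1d replicates 1 or 2 and 4 without E18.5d replicate 1, and the number lower was 2 without E18.5d replicate 2. *Gata6* had a log2 change of 0.52 and *Hey2*, a Notch target of the compact ventricle, of -0.65. The *Xist* covariate raised the adjusted p of *Hcn4* above the threshold.

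Imprinted genes, many of which drive foetal growth, fell more often than they rose: 2 of 28 genes tested rose and 15 fell, with a median log2 change of -0.34 (0 and 9 with the *Xist* covariate, 0 and 3 without both *Xist* hearts). In the imprinted genes list, the number lower was 9 without E18.5d replicate 2. *H19*, the noncoding RNA of the *Igf2* locus and the most abundant member, stood at 2274, 2233 and 2037 FPKM at E18.5d against 1590.2, 1768 and 1697 at P1d (log2 change -0.37 ± 0.08 SE, adjusted p = 0.00993). The growth factor *Igf2* stood at 692, 731 and 720.2 FPKM at E18.5d against 559.7, 629 and 597 at P1d (log2 change -0.26 ± 0.07 SE, adjusted p = 0.0193). *Mest* stood at 423, 393 and 379 FPKM at E18.5d against 217, 195 and 204 at P1d (log2 change -0.95 ± 0.07 SE, adjusted p = 0.000134). The noncoding *Rian*, whose values the table repeats under another identifier, stood at 72.7, 81.0 and 75.3 FPKM at E18.5d against 39.0, 35.9 and 35.2 at P1d (log2 change -1.04 ± 0.07 SE, adjusted p = 9.55e-05). Of insulin-like growth factors and oncofoetal RNA binders, 2 of 18 genes tested rose and 2 fell, with a median log2 change of -0.07 (1 and 1 with the *Xist* covariate, 0 and 0 without both *Xist* hearts, 2 and 3 at equal sums, 3 and 1 by median of ratios, 3 and 1 by quantile normalization). The insulin receptor *Insr* rose from a mean of 42.9 ± 1.25 to 71.5 ± 10.1 FPKM (SD, n = 3, log2 change 0.71 ± 0.10 SE, adjusted p = 0.00196). *Igf2bp1*, a foetal binder of *Igf2* mRNA, fell from a mean of 9.91 ± 1.43 to 4.68 ± 0.995 FPKM (SD, n = 3, log2 change -0.95 ± 0.16 SE, adjusted p = 0.0031). *H19* did not pass without E18.5d replicate 2 (adjusted p = 0.0521). *Igf2* did not pass without E18.5d replicates 2 or 3 or P1d replicate 1 (adjusted p = 0.056 to 0.0829). *H19* and *Igf2* did not stay past the threshold once *Xist* was a covariate.

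Of BMP, TGF-beta and Notch signalling, 4 of 35 genes tested rose and 13 fell, with a median log2 change of -0.24 (1 and 8 with the *Xist* covariate, 0 and 2 without both *Xist* hearts). The Notch ligand *Jag1* stood at 16.3, 18.2 and 13.8 FPKM at E18.5d against 8.32, 8.84 and 9.11 at P1d (log2 change -0.80 ± 0.10 SE, adjusted p = 0.00126). *Nrarp*, a Notch target, stood at 11.9, 12.5 and 11.98 FPKM at E18.5d against 5.48, 4.62 and 7.03 at P1d (log2 change -0.99 ± 0.13 SE, adjusted p = 0.00128). *Bmp7* fell from a mean of 11.8 ± 0.771 to 6.59 ± 0.882 FPKM (SD, n = 3, log2 change -0.75 ± 0.10 SE, adjusted p = 0.00158). The receptors *Tgfbr2* and *Tgfbr3* had log2 changes of 0.47 and 0.56. Of neuregulin, Hippo and Wnt signalling, 6 of 35 genes tested rose and 10 fell, with a median log2 change of -0.11 (1 and 4 with the *Xist* covariate, 0 and 1 without both *Xist* hearts, 7 and 7 by quantile normalization). For the Hippo list, the number higher was 3 without E18.5d replicates 1, 2 or 3 or P1d replicate 1, and the number lower was 6 without E18.5d replicate 2. *Amotl2*, a target and partner of YAP, stood at 30.8, 30.6 and 28.2 FPKM at E18.5d against 65.8, 70.5 and 52.6 at P1d (log2 change 1.04 ± 0.11 SE, adjusted p = 0.000546). *Tead3* and *Tead4*, DNA-binding partners of YAP, parted with log2 changes of 0.61 and -0.58. *Tgfbr3*, *Tead3* and *Tead4* did not pass the threshold with the *Xist* covariate.

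Collagen chains are hydroxylated and folded in the endoplasmic reticulum before they are secreted. Of collagens and their processing, 1 of 47 genes tested rose and 18 fell, with a median log2 change of -0.15 (1 and 8 with the *Xist* covariate, 0 and 8 without both *Xist* hearts). *Serpinh1*, the collagen chaperone HSP47, stood at 375, 382 and 365 FPKM at E18.5d against 152, 176 and 169 at P1d (log2 change -1.17 ± 0.07 SE, adjusted p = 7.12e-05). The lysyl hydroxylase *Plod2* stood at 26.5, 28.4 and 26.9 FPKM at E18.5d against 11.4, 11.97 and 11.9 at P1d (log2 change -1.15 ± 0.06 SE, adjusted p = 5.68e-05). *P4ha2* stood at 25.1, 25.5 and 23.9 FPKM at E18.5d against 9.36, 10.3 and 11.3 at P1d (log2 change -1.19 ± 0.08 SE, adjusted p = 9.97e-05). *P4ha1* and *P4ha2* are also in the hypoxia list. The fibrillar *Col3a1* had overlapping hearts and a log2 change of 0.01, and *Col4a1* of basement membranes one of -0.07. Of non-collagen matrix and remodelling, 5 of 55 genes tested rose and 14 fell, with a median log2 change of -0.10 (1 and 7 with the *Xist* covariate, 0 and 2 without both *Xist* hearts). In the non-collagen matrix and remodelling list, the number higher was 8 without P1d replicate 3, and the number lower was 9 without E18.5d replicate 2. *Tnc*, tenascin C of developing tissue, stood at 44.7, 42.5 and 36.2 FPKM at E18.5d against 16.8, 20.4 and 20.8 at P1d (log2 change -1.05 ± 0.11 SE, adjusted p = 0.000546). *Timp4*, an inhibitor of matrix proteases in heart, stood at 0.65, 1.39 and 1.20 FPKM at E18.5d against 6.61, 6.98 and 3.15 at P1d (log2 change 1.62 ± 0.27 SE, adjusted p = 0.00332). Of integrins and laminins, 4 of 27 genes tested rose and 7 fell, with a median log2 change of 0.00 (2 and 4 with the *Xist* covariate, 0 and 2 without both *Xist* hearts). For the integrins and laminins list, the number lower was 3 without P1d replicate 1 and 4 without E18.5d replicates 1 or 2. *Itga7* and *Lama2*, the laminin receptor and laminin of mature muscle, rose with log2 changes of 0.65 and 0.65, and *Itga1*, a collagen receptor, had a log2 change of -0.83. The *Xist* covariate raised the adjusted p of *Timp4* above the threshold.

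In the innate response and acute phase list, 15 of 26 genes tested rose and 2 fell, with a median log2 change of 0.59 (6 and 2 with the *Xist* covariate, 0 and 1 without both *Xist* hearts). In the innate list, the number higher was 9 without E18.5d replicate 3 or P1d replicate 1. Of the list's 44 members 18 were under the filter, and 7 of the 15 risen genes had a mean under 1 FPKM at E18.5d and so passed the filter through their P1d values, which leaves the count no measure of the whole list. *C3*, the central complement protein, stood at 21.6, 27.5 and 24.7 FPKM at E18.5d against 48.0, 64.3 and 44.5 at P1d (log2 change 1.05 ± 0.15 SE, adjusted p = 0.00168). *Lcn2*, lipocalin 2 of neutrophils and acute phase, stood at 0.96, 0.83 and 0.41 FPKM at E18.5d against 3.28, 4.60 and 2.71 at P1d (log2 change 1.38 ± 0.19 SE, adjusted p = 0.00172). Of antigen presentation, 8 of 17 genes tested rose and 0 fell, with a median log2 change of 0.34 (3 and 0 with the *Xist* covariate, 2 and 0 without both *Xist* hearts). For the antigen presentation list, the number higher was 5 without E18.5d replicate 3. *H2-D1* and *H2-K1*, class I molecules whose close relatives may share reads, stood at 21.2, 16.7 and 15.1 FPKM at E18.5d against 32.8, 42.7 and 32.5 at P1d (log2 change 0.99 ± 0.15 SE, adjusted p = 0.00212) and at 13.8, 13.6 and 12.6 FPKM at E18.5d against 18.8, 26.3 and 17.6 at P1d (log2 change 0.59 ± 0.14 SE, adjusted p = 0.015). Their light chain *B2m* had overlapping hearts. Of interferon-stimulated genes, 5 of 34 genes tested rose and 9 fell, with a median log2 change of -0.02 (1 and 4 with the *Xist* covariate, 0 and 1 without both *Xist* hearts, 8 and 6 by median of ratios, 8 and 6 by quantile normalization). In the interferon-stimulated genes list, the number higher was 2 without E18.5d replicate 3 or P1d replicate 2 and 3 without E18.5d replicate 2 or P1d replicates 1 or 3, and the number lower was 2 without E18.5d replicate 2 and 3 without E18.5d replicate 1 or P1d replicate 1. The factors *Stat2* and *Irf9* fell with log2 changes of -0.89 and -0.49, and *Rsad2* rose from a mean of 1.98 ± 0.211 to 3.72 ± 0.46 FPKM (SD, n = 3, log2 change 0.66 ± 0.12 SE, adjusted p = 0.00405). The interferon-stimulated response element, as GAAA, any 2 bases and GAAA, stood in 16 of 29 windows of this list (55.2%) and in 3.49% of all windows. *H2-K1* did not pass without E18.5d replicate 3 (adjusted p = 0.0562). *Irf9* did not pass without E18.5d replicates 1 or 2 or P1d replicates 1 or 3 (adjusted p = 0.0745 to 0.0901). *H2-K1* and *Irf9* did not stay past the threshold once *Xist* was a covariate.

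Among the marker lists of blood cells, that of neutrophils had the widest gap between the stages. The 6 neutrophil genes that passed the filter, of 19, all rose (4 with the *Xist* covariate and 3 without both *Xist* hearts), and the summed level of the 19 went from 7.97 to 14.5 FPKM at E18.5d to 55.3 to 83.7 FPKM at P1d. Genes near 0 at E18.5d passed the filter through their P1d values, so the count of 6 is no measure of the list. *S100a8* stood at 2.13, 4.99 and 2.33 FPKM at E18.5d against 17.0, 25.6 and 16.7 at P1d and *S100a9* at 4.65, 5.26 and 3.08 FPKM at E18.5d against 19.4, 33.3 and 28.8 at P1d. *Ngp*, a granule protein, rose from a mean of 0.53 ± 0.331 to 4.75 ± 1.45 FPKM (SD, n = 3, log2 change 1.90 ± 0.22 SE, adjusted p = 0.000803). Of macrophage markers, 10 of 17 genes tested rose and 0 fell, with a median log2 change of 0.56 (1 and 0 with the *Xist* covariate, 0 and 0 without both *Xist* hearts), and their summed level went from 117 to 146 FPKM to 164 to 232 FPKM. For the macrophage marker list, the number higher was 5 without P1d replicate 1 and 6 without E18.5d replicates 2 or 3. Of their defining genes, *Csf1r* stood at 7.66, 7.71 and 6.57 FPKM at E18.5d against 10.5, 12.9 and 9.51 at P1d and *Cd68* at 4.84, 4.12 and 3.07 FPKM at E18.5d against 7.27, 6.96 and 4.90 at P1d, while *Adgre1* stood at 3.58, 3.06 and 2.90 FPKM at E18.5d against 2.07, 3.06 and 2.44 at P1d with overlapping hearts. The part of these cells in the rise of innate and antigen-presentation genes was not tested. Among platelet markers, 2 of 7 genes tested rose and 0 fell, with a median log2 change of 0.12 (0 and 0 with the *Xist* covariate, 0 and 0 without both *Xist* hearts). Of the lymphocyte and thymus list 1 gene, *Ighm*, passed the filter, with a log2 change of 0.67, and it did not pass without both *Xist* hearts. *Ighm* averaged 0.583 FPKM at E18.5d and 1.52 FPKM at P1d. It thus passed the filter through its P1d values, as did 1 of the 2 risen platelet genes. *Cd68* did not pass without E18.5d replicates 2 or 3 or P1d replicates 1 or 2 (adjusted p = 0.0884 to 0.119). *Csf1r*, *Cd68* and *Ighm* did not pass the threshold with the *Xist* covariate.

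**Figure D5:**
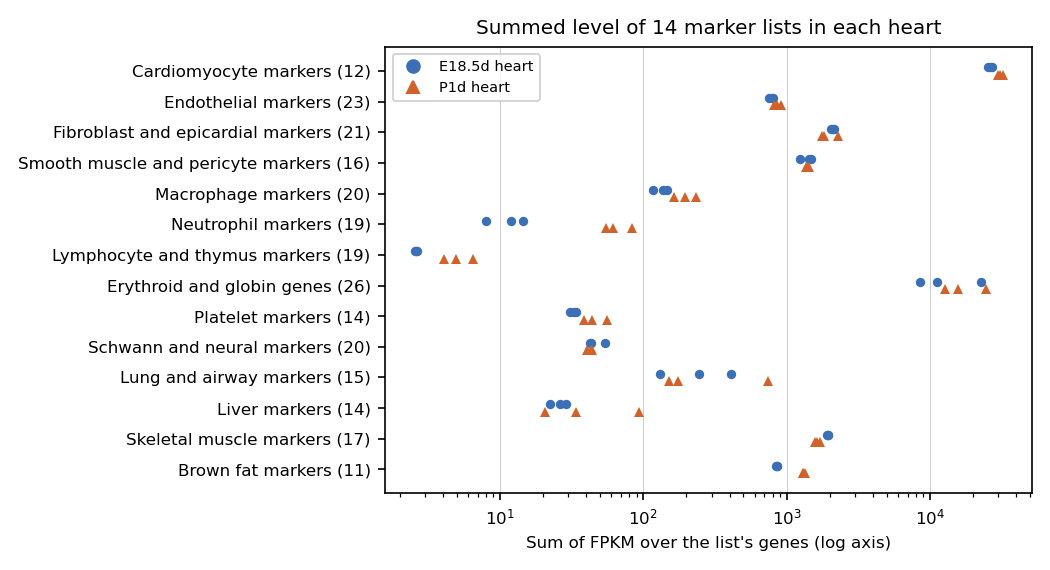
Summed FPKM of the marker lists in each heart, on a log axis, circles for E18.5d and triangles for P1d. Neutrophil markers have the widest gap between the stages, and the erythroid, lung and liver lists are among those that overlap.

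Iron genes rose more often than they fell: 12 of 24 genes tested rose and 1 fell, with a median log2 change of 0.29 (5 and 0 with the *Xist* covariate, 3 and 0 without both *Xist* hearts). *Slc40a1*, the iron exporter ferroportin, stood at 3.78, 4.43 and 3.99 FPKM at E18.5d against 9.70, 11.9 and 8.72 at P1d (log2 change 1.12 ± 0.12 SE, adjusted p = 0.000552). *Hamp*, hepcidin, which removes it from the membrane, stood at 1.06, 1.22 and 0 FPKM at E18.5d against 2.28, 7.74 and 5.26 at P1d (log2 change 1.76 ± 0.42 SE, adjusted p = 0.014). With a mean of 0.76 FPKM at E18.5d, *Hamp* passed the filter through its P1d values. The fallen member was the transferrin receptor *Tfrc*, also a hypoxia target, at 58.5, 46.3 and 59.5 FPKM at E18.5d against 24.03, 13.1 and 28.1 at P1d (log2 change -1.35 ± 0.26 SE, adjusted p = 0.00559). Of erythroid and globin genes, 3 of 16 genes tested rose and 1 fell, with a median log2 change of 0.32 (1 and 0 with the *Xist* covariate, 2 and 0 without both *Xist* hearts, 1 and 1 at equal sums), with summed levels of 8480 to 22829 FPKM at E18.5d and 12811 to 24816 FPKM at P1d that overlapped. Of antioxidant and glutathione genes, 14 of 40 genes tested rose and 6 fell, with a median log2 change of 0.18 (3 and 4 with the *Xist* covariate, 3 and 1 without both *Xist* hearts). Catalase, *Cat*, stood at 31.6, 34.0 and 32.9 FPKM at E18.5d against 60.1, 60.3 and 56.4 at P1d (log2 change 0.83 ± 0.06 SE, adjusted p = 0.000139). *Gstm1*, a glutathione transferase with close relatives, rose from a mean of 41.4 ± 4.71 to 89.4 ± 21.2 FPKM (SD, n = 3, log2 change 1.07 ± 0.18 SE, adjusted p = 0.00336). The antioxidant response element, TGAC and GC with 3 bases between, stood in 8 of 35 windows of the list (22.9%) and in 12.4% of all windows. The peroxiredoxin *Prdx1* fell from a mean of 197 ± 23.2 to 134 ± 12.6 FPKM (SD, n = 3, log2 change -0.55 ± 0.11 SE, adjusted p = 0.00589). *Hamp*, *Tfrc*, *Gstm1* and *Prdx1* did not stay past the threshold once *Xist* was a covariate.

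Of the cardiomyocyte markers, 6 of 12 genes tested rose and 0 fell, with a median log2 change of 0.19 (3 and 0 with the *Xist* covariate, 2 and 0 without both *Xist* hearts). Of endothelial markers, 5 of 23 genes tested rose and 5 fell, with a median log2 change of 0.12 (3 and 3 with the *Xist* covariate, 1 and 0 without both *Xist* hearts, 3 and 8 at equal sums, 6 and 5 at equal sums of protein-coding nuclear genes, 7 and 5 by median of ratios, 8 and 5 by quantile normalization). *Cldn5*, a tight junction protein, stood at 13.7, 13.2 and 11.4 FPKM at E18.5d against 29.5, 33.5 and 24.9 at P1d (log2 change 1.13 ± 0.12 SE, adjusted p = 0.000521). *Apln*, apelin of growing vessels and a gene that hypoxia induces, stood at 9.13, 9.20 and 8.18 FPKM at E18.5d against 1.90, 2.68 and 4.38 at P1d (log2 change -1.35 ± 0.21 SE, adjusted p = 0.00245). Of fibroblast and epicardial markers, 1 of 21 genes tested rose and 4 fell, with a median log2 change of -0.28 (0 and 0 with the *Xist* covariate, 0 and 0 without both *Xist* hearts). In the fibroblast and epicardial marker list, the number lower was 1 without E18.5d replicate 2, 2 without E18.5d replicate 1 or P1d replicate 1 and 9 without P1d replicate 2. *Postn*, periostin, fell from a mean of 502 ± 8.47 to 402 ± 34.7 FPKM (SD, n = 3, log2 change -0.32 ± 0.08 SE, adjusted p = 0.0146). Of smooth muscle and pericyte markers, 4 of 16 genes tested rose and 4 fell, with a median log2 change of -0.07 (0 and 1 with the *Xist* covariate, 0 and 1 without both *Xist* hearts, 2 and 5 at equal sums, 5 and 3 at equal sums of protein-coding nuclear genes, 5 and 3 by median of ratios, 5 and 3 by quantile normalization). For the smooth muscle and pericyte marker list, the number lower was 1 without E18.5d replicates 1 or 2 and 2 without P1d replicate 1. *Cnn1*, calponin of smooth muscle, stood at 34.2, 34.1 and 27.0 FPKM at E18.5d against 13.2, 13.99 and 11.1 at P1d (log2 change -1.25 ± 0.12 SE, adjusted p = 0.000384). Of Schwann and neural markers, 0 of 10 genes tested rose and 3 fell, with a median log2 change of -0.19 (0 and 3 with the *Xist* covariate, 0 and 2 without both *Xist* hearts, 1 and 1 by median of ratios, 1 and 1 by quantile normalization). *Postn* did not pass without E18.5d replicates 1 or 2 (adjusted p = 0.0506 to 0.0539). *Postn* did not pass the threshold with the *Xist* covariate.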

How the data were processed

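RNA of whole hearts was sequenced, with libraries made per the labels with a NEBNext Ultra RNA kit from total RNA. The values the authors deposited are FPKM with 2 decimals and 1 column per heart. The submitters' processing notes name STAR, GRCm38 and mm10 without versions, and the counting tool, its strand setting and the annotation are not given in the sources used here. Without strand, reads of genes that overlap on opposite strands cannot be told apart. Identifiers were matched without version to GENCODE M21, which holds 48058 of 48820. Of the genes tested, 125 repeat the values of another identifier.

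FPKM are not counts, so log2(FPKM + 1), with a pseudocount of 1, was modelled on the 6 hearts without covariates, using lmFit and eBayes with trend (limma 3.58.1, R 4.3.3). In a simulation of this fit on 13753 genes with 200 changed by 1 on the log2 scale, 183 (91.5%) were called, beside 7 unchanged genes. The changed genes were drawn only from those above the lowest levels at E18.5d, so the share does not cover genes near the filter. The simulated hearts varied independently, with no difference in scaling or *Xist* expression between the stages. The depth was read from low values, of which 86.4% to 89% came out as whole fragments within a tolerance of 0.1. A single fragment on a transcript of 1 kb then equals 0.0265 to 0.0392 FPKM, and the depth limits genes near the filter most.

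Named genes were taken from those that passed and had no overlap between the stages: the 12 largest protein-coding autosomal increases and decreases and up to 4 in each direction per list, with the 2 most abundant genes and the tested members of small lists, sex genes and defining markers regardless. A few genes that this rule selects are not reported here. The members and lists were chosen with earlier results of these data known. Promoter sequences are RefSeq's (GRCm38.p6), for genes matched by symbol. Alternatives were a pseudocount of 0.1, no filter or a mean of at least 5 FPKM, 4 other scalings, eBayes without trend, all 9 hearts, a replicate block, an *Xist* covariate, a log2 change of at least 1, and each heart left out. Leaving out both hearts that express *Xist* was added after seeing the data. Python 3.11.15, pandas 2.3.3, numpy 2.4.6 and matplotlib 3.10.9 were used. P7d hearts entered only the fit of all 9 hearts.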

Additional observations from a re-analysis of the deposited data

How the results depend on the processing

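The total of 5557 changed genes, or its split into 2188 higher and 3369 lower, moved by over 1.5 times in 4 settings. The total was 2087 (660 and 1427) with the *Xist* covariate, 765 (221 and 544) without both hearts that express *Xist*, which was chosen after seeing the data, and 721 (263 and 458) with a log2 change of at least 1. At an equal sum the number higher was 1028. With each heart left out in turn the total was 3918 to 5563, the number higher 1538 to 2297 and the number lower 2365 to 3266. The replicate numbers showed no pairing of the hearts. Over genes, the deviations of same-numbered hearts from their stage means correlated at 0.04, -0.05 and 0.07. The replicate block gave 4975 genes (1959 and 3016). Of the 192 named genes past the threshold, 154 kept it with the *Xist* covariate, 98 without both hearts, 185 at an equal sum, 180 to 190 with 1 heart left out, and all 192 with the block. The cardiomyocyte marker *Tnnt2* went from a log2 change of 0.11, short of the threshold, to -0.36 past it under quantile normalization. The cause was not tested in any of these. List medians, taken less the median of all genes, moved by 0.1 or more in 16 of 65 lists with no filter, in 11 with the *Xist* covariate, in 11 without both hearts, in 10 with a pseudocount of 0.1, in 3 to 10 with 1 heart left out, in 6 of 64 with a mean of at least 5 FPKM, in 2 after quantile normalization and in 1 at an equal sum.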

Other observations

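By gene type, 1978 of 12103 protein-coding genes rose (16.3%) and 3111 fell (25.7%). Of 184 lincRNA genes 32 rose (17.4%) and 43 fell (23.4%). Both types were near the shares of all genes tested, 15.9% and 24.5%. Of 224 antisense genes 37 rose (16.5%) and 28 fell (12.5%), and of 337 processed pseudogenes 22 rose (6.53%) and 30 fell (8.9%). Of 23 RNA genes that start next to and opposite a protein-coding gene (bidirectional promoter), 8 rose (34.8%) and 4 fell (17.4%).

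Some genes of neighbouring tissue differed between hearts of the same stage. The airway secretoglobin *Scgb3a1* stood at 34.9, 115 and 0.48 FPKM in the E18.5d hearts and at 270.3, 2.97 and 0.5 FPKM in the P1d hearts, and *Scgb1a1* at 2.25, 8.69 and 0 FPKM and at 42.1, 0 and 0 FPKM. In the lung and airway list 1 of 5 genes tested rose, *Hopx*, which cardiomyocytes also express, and 0 fell. *Hopx* did not pass with the *Xist* covariate, without both *Xist* hearts, at an equal sum, or without E18.5d replicates 2 or 3 or P1d replicates 1 or 2. The liver genes *Alb*, *Afp* and *Apoa2* were highest in P1d replicate 2, at 15.9, 4.08 and 7.07 FPKM, and in the liver list 0 of 5 genes tested rose or fell, also with the *Xist* covariate and without both *Xist* hearts, and 1 rose without P1d replicate 3. The summed level of the liver list was 22.3 to 28.8 FPKM at E18.5d and 20.6 to 93.7 FPKM at P1d.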
